A study of Mus musculus with 9 samples.

Results

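The 9 genes Ncam1, Sez6, Sstr2, Ret, Kit, Cd24a, Cd44, Epha2 and Axl encode surface proteins that have been studied as antigens or receptor targets in small cell lung cancer (SCLC). They were chosen by name, as the entries whose symbol matched in both of the authors' deposited tables, and are 9 of the 57010 genes listed there. They lie on mouse chromosomes 9 (Ncam1), 11 (Sez6 and Sstr2), 6 (Ret), 5 (Kit), 10 (Cd24a), 2 (Cd44), 4 (Epha2) and 7 (Axl). RNA was sequenced from mouse organoids, small tissue-like bodies grown in culture, in 3 groups of 3 libraries each: SCLC organoids treated with an agent named only as GSK (GSK), SCLC organoids with no treatment named (SCLC), and normal lung organoids (Normal). The sample labels call the first 2 groups SCLC and the third normal lung, and give no genotype, strain, age, dose or time. They do not say whether the 3 libraries of a group came from separate cultures or animals, so p-values measure only the spread between these libraries, which may be technical. The values came as a pair of comparisons, SCLC against Normal and GSK against a control that matched the SCLC group, with no value for a single library.

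SCLC is a neuroendocrine tumour, and many of its cells carry proteins of nerve and endocrine cells on their surface. NCAM1 (CD56) is a cell adhesion molecule of neurons that pathologists use to recognise the tumour, SEZ6 is a neuronal membrane protein pursued with antibody-drug conjugates, and SSTR2 is a somatostatin receptor used for imaging and radioligand therapy of neuroendocrine tumours. RET and KIT are receptor tyrosine kinases for GDNF family ligands and for stem cell factor. CD24, a small glycosylphosphatidylinositol-anchored sialoglycoprotein, and CD44, the hyaluronan receptor, are widely used to tell tumour cell states apart. EPHA2 binds ephrins and AXL binds GAS6; in SCLC, CD44, EPHA2 and AXL are known mainly from cells that have lost neuroendocrine features.

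Every level below is a group mean in normalized counts, implied by the authors' mean over 6 libraries and their fold change. Fold changes are log2 values ± the authors' standard error (SE), with 95% intervals computed from that SE, and a gene is said to have risen or fallen where the authors' adjusted p was under 0.05. Values under another scaling, filter or test were recomputed here from the deposited fold changes, SEs and p-values. All 9 genes had an adjusted p in both of the authors' deposited tables, so none was lost to a filter on low values. The implied sums over all genes were 31900000 normalized counts for GSK against 45300000 for SCLC in one of the authors' deposited tables, and 42000000 for SCLC against 44700000 for Normal in the other. The labelled identities could be checked on marker genes. The 8 neuroendocrine markers summed to 156000 in SCLC against 79.4 in Normal, and 8 lung epithelial markers to 548 in SCLC against 2710000 in Normal, from the authors' deposited table. Markers of cells outside the epithelium stood out in GSK and are given with its results.

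**Figure D1:**
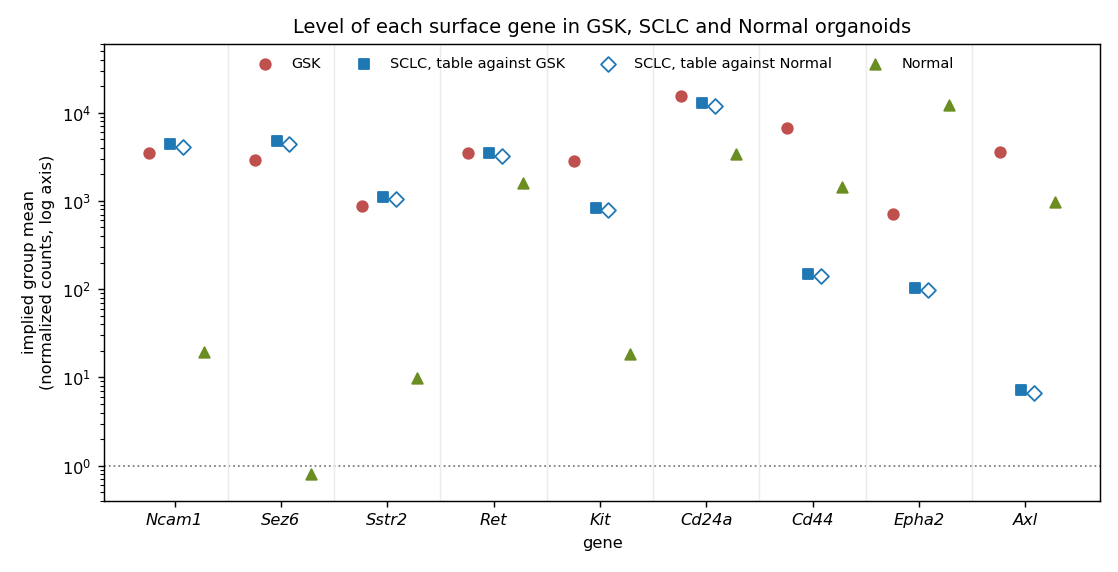
Implied group mean of each gene in normalized counts (log axis) in GSK, SCLC and Normal organoids, with the SCLC value of each comparison shown separately and no error bar, since only fold changes carry an error. Ncam1, Sez6, Sstr2 and Kit sat at 19.3 or less in Normal, and Cd44, Epha2 and Axl sat at 150 or less in SCLC; the dotted line marks a mean of 1.

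The genes fell into 2 opposite sets in SCLC against Normal. Ncam1, Sez6, Sstr2, Kit and Cd24a rose and Cd44, Epha2 and Axl fell, while Ret did not pass, by the adjusted p of the authors' deposited table. That made 8 of 9 genes called, where 50.4% of all genes tested and 66.7% of those averaging 100 or more were called per the authors' deposited table. By direction, 5 of 9 rose against 25.3% of all genes tested, and 3 of 9 fell against 25.1%, per the authors' deposited table. The median log2 fold change of the 9 was 1.82, beside 0.1 over all genes tested, per the authors' deposited table.

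GSK against SCLC gave another pattern, in which the 3 genes that had fallen in SCLC rose and, of the 5 that had risen, 1 rose further, 1 fell and 3 did not pass, per the authors' deposited table. Cd44, Epha2, Axl and Kit rose and Sez6 fell, and Ncam1, Sstr2, Ret and Cd24a did not pass, by the adjusted p of the authors' deposited table. The 5 genes called of 9 compare with 37.1% of all genes tested and 49.2% of those averaging 100 or more per the authors' deposited table. Of the 9, 4 rose where 21.6% of all genes tested did, and 1 fell where 15.5% did, per the authors' deposited table. The split of all calls depended on the scaling: 6129 genes were higher and 4404 lower as deposited, 7242 and 3077 with the median of abundant genes at 0, and 8738 and 1970 with equal implied totals, from the authors' deposited table. The median of the 9 was 0.25 beside 0.242 over all genes tested, while genes averaging 100 or more had a median of -0.25, per the authors' deposited table. Both comparisons share the SCLC libraries, so a low SCLC value enters both.

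**Figure D2:**
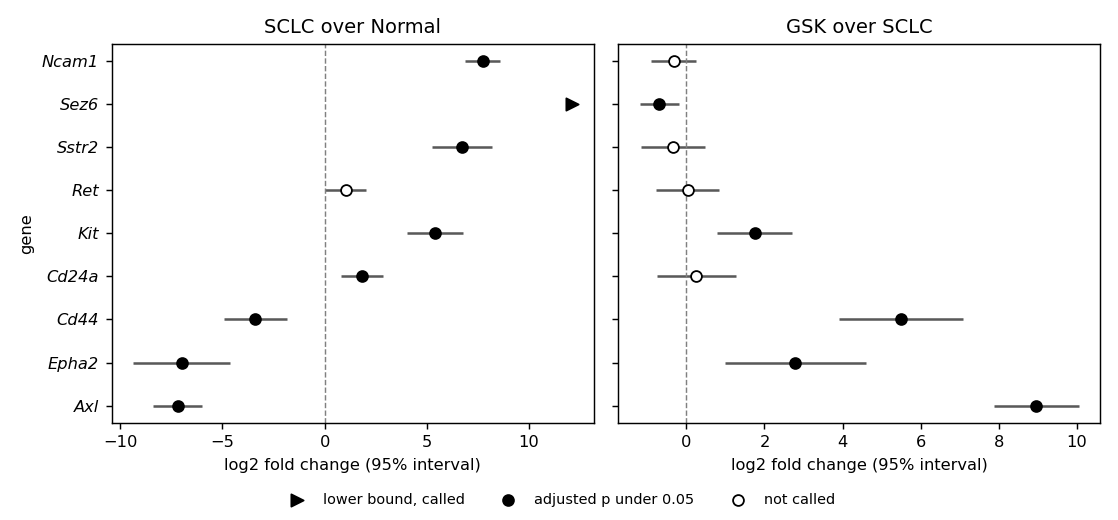
Log2 fold change of the 9 genes in SCLC over Normal (left) and GSK over SCLC (right), as points with 95% intervals; filled points had an adjusted p under 0.05 and the triangle is a lower bound. Axl reached -7.18 in the left panel and 8.96 in the right, and the intervals of Ncam1, Sstr2, Ret and Cd24a include 0 in the right panel.

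Ncam1 stood at 4086 in SCLC against 19.3 in Normal, a rise of 7.73 ± 0.43 (95% interval 6.89 to 8.56, adjusted p = 5.94e-71) per the authors' deposited table. It was at 3506 in GSK against 4387 in SCLC, a difference of -0.32 ± 0.30 whose 95% interval of -0.91 to 0.26 spans 0 (adjusted p = 0.427) and whose sign turned with equal totals (0.18), per the authors' deposited table. Ncam1 was thus high in both tumour groups and low in Normal. An antisense gene, Gm11149, overlaps up to 151 bases of an Ncam1 exon in the GENCODE M21 annotation, and had means of 4.92 and 9.13 per the authors' deposited tables. The labels call the library kit stranded, but whether the counting used strand was not stated.

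Sez6 reached 4406 in SCLC against 0.8 in Normal, which lies under the floor of 1 normalized count used here (3 counts over the 3 libraries). Set against that floor it was 4410-fold higher in SCLC, or 12.11 on the log2 scale. The deposited log2 fold change was 12.43 ± 1.21 (95% interval 10.06 to 14.79, adjusted p = 1.43e-23), per the authors' deposited table. Its interval reaches below 12.11, so 4410-fold is not a minimum. Its level was 2932 in GSK against 4747 in SCLC, a fall of 0.7 ± 0.25 on the log2 scale (a log2 fold change of -0.7, 95% interval -1.19 to -0.2, adjusted p = 0.02), per the authors' deposited table. This fall of Sez6 lost its call when the median of genes averaging 100 or more was set to 0 (-0.45, adjusted p = 0.162) and when the implied totals were made equal (-0.19, adjusted p = 0.596), from the authors' deposited table.

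Among 7 tested relatives and polysialic acid enzymes of the 8 in that list, 5 rose and 1 fell in SCLC against Normal, with a median of 3.04, per the authors' deposited table. The close relatives Sez6l (5.44 ± 1.97) and Sez6l2 (4.48 ± 0.45) rose with Sez6, as did Ncam2 (4.13 ± 0.77), a second NCAM gene, per the authors' deposited table. St8sia4, a polysialyltransferase that modifies NCAM1, stood at 388 in SCLC against 47.3 in Normal (adjusted p = 4.45e-13) per the authors' deposited table. Chl1, an adhesion molecule of the L1 family, went the other way, at 11 in SCLC against 500 in Normal (adjusted p = 1.32e-09), per the authors' deposited table. In GSK against SCLC, 3 of 7 rose and 2 fell, with a median of 0.84, per the authors' deposited table. Under both other scalings 4 rose and 1 fell, with medians of 1.08 and 1.34, recomputed from the authors' deposited table. Sez6l fell to 37.6 in GSK, against 450 in SCLC (adjusted p = 0.00123), whereas Sez6l2 had 3278 in GSK and 4331 in SCLC (-0.4, adjusted p = 0.38, and 0.1 with equal totals), per the authors' deposited table. Ncam2 fell (-1.53 ± 0.63, adjusted p = 0.0421), a call that ended under both scalings (adjusted p = 0.0981 and 0.196), per the authors' deposited table. St8sia4 rose (1.29 ± 0.39), Nrcam rose (1.24 ± 0.48), and Chl1 rose (2.44 ± 1.02, adjusted p = 0.0453), a call lost with no filter on low counts (adjusted p = 0.0572), per the authors' deposited table.

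Sstr2 had 1042 in SCLC against 9.82 in Normal, a rise of 6.73 ± 0.74 (95% interval 5.27 to 8.19, adjusted p = 1.99e-18), per the authors' deposited table. It had 874 in GSK against 1112 in SCLC (-0.35 ± 0.42, 95% interval -1.17 to 0.48, adjusted p = 0.56, and 0.16 with equal totals) per the authors' deposited table. The difference between the tumour groups was small beside that from Normal. Of the somatostatin ligand and other somatostatin receptor genes, 2 of 4 tested rose in SCLC and none fell (median 2.72), per the authors' deposited table. With equal totals 3 of these genes rose, and 1 rose with the median of abundant genes at 0, recomputed from the authors' deposited table. Sstr5, which also binds somatostatin, rose in SCLC (6.62 ± 1.52, 95% interval 3.64 to 9.61, adjusted p = 4.91e-05), or 40.1-fold against the floor of 1, per the authors' deposited table. Sstr1 rose as well (2.76 ± 1.21, adjusted p = 0.0451), a call lost with the median at 0 (adjusted p = 0.063), per the authors' deposited table. GSK against SCLC had 3 of 5 tested genes higher and 1 lower (median 1.79), per the authors' deposited table. Sstr5 rose to 383 in GSK, against 43.2 in SCLC (adjusted p = 4.33e-06), per the authors' deposited table. Sstr4 rose (5.82 ± 1.23, 95% interval 3.41 to 8.23), or 29.1-fold against the floor of 1, per the authors' deposited table. Sstr1 fell to 2.59 in GSK, against 26.8 in SCLC (adjusted p = 0.0229, or 0.0588 with equal totals), per the authors' deposited table. The ligand gene Sst lay under 1 in all groups, and Cort, encoding the related peptide cortistatin, rose to 53.2 in GSK, against 15.4 in SCLC (adjusted p = 0.00277), per the authors' deposited table.

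Ret was present in every group, with 3238 in SCLC against 1580 in Normal and 3529 in GSK against 3459 in SCLC, per the authors' deposited tables. Neither difference passed: SCLC over Normal was 1.03 ± 0.52 (95% interval 0.02 to 2.05, unadjusted p = 0.046, adjusted p = 0.0846), and GSK over SCLC was 0.03 ± 0.41 (95% interval -0.78 to 0.84, adjusted p = 0.968), per the authors' deposited tables. Ret had the smallest fitted fold change of the 9 in both comparisons, but its interval in SCLC over Normal reaches 2.05, per the authors' deposited tables. RET signals with a GDNF family ligand and a GFRA co-receptor, and these genes moved apart. In SCLC, Gfra4, the co-receptor for persephin, rose to 2176, against 29.1 in Normal (adjusted p = 7.91e-19), and Nrtn, encoding neurturin, rose to 1768, against 456 in Normal (adjusted p = 2.27e-10), per the authors' deposited table. Gdnf fell in SCLC (-9.82 ± 0.91, adjusted p = 1.66e-25), or 390-fold against the floor of 1, per the authors' deposited table. Artn fell (-3.2 ± 0.34) and Gfra2 fell (-2.8 ± 1.07, adjusted p = 0.02), per the authors' deposited table. The RET list thus had 2 of 7 tested genes higher and 3 lower in SCLC, with a median of -0.22, per the authors' deposited table. With GSK 1 of 8 tested genes changed, Nrtn, which fell to 143 in GSK, against 1913 in SCLC (adjusted p = 3.52e-22), with a list median of 0.47, per the authors' deposited table.

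Kit rose in each comparison. It had 780 in SCLC against 18.3 in Normal (5.41 ± 0.70, 95% interval 4.04 to 6.79, adjusted p = 1.2e-13) per the authors' deposited table. It had 2808 in GSK against 837 in SCLC (1.75 ± 0.49, 95% interval 0.78 to 2.71, adjusted p = 0.00184) per the authors' deposited table. The rise of Kit in GSK was not called with a t distribution of 4 degrees of freedom (adjusted p = 0.11) or as a change above 1 (adjusted p = 0.558), from the authors' deposited table. Kitl, encoding its ligand stem cell factor, rose in SCLC to 638, against 255 in Normal (adjusted p = 0.00245), and had 1079 in GSK against 686 in SCLC (adjusted p = 0.291), per the authors' deposited tables. Kit is also a marker of mast cells: of 6 mast cell markers, Cpa3, Cma1, Fcer1a and Ms4a2 rose in GSK, and Tpsb2 and Mcpt4 were not tested, per the authors' deposited table. The list summed to 79.9 in GSK against 0.637 in SCLC, per the authors' deposited table. Levels were low: over both groups Cma1 averaged 27.77, Cpa3 3.928, Fcer1a 2.681 and Ms4a2 5.07, per the authors' deposited table. In SCLC against Normal none of the 6 mast cell markers was tested, and 5 were listed at 0, per the authors' deposited table. Of the KIT ligand and the other receptor kinases of the same class, 2 of 5 rose and 3 fell in SCLC (median -7.12), per the authors' deposited table. Pdgfra, Pdgfrb and Csf1r, which mark fibroblasts, mural cells and macrophages, fell in SCLC, with log2 fold changes of -8.09 for Pdgfra, -7.61 for Pdgfrb and -7.12 for Csf1r, per the authors' deposited table. In GSK they rose (Pdgfra 6.17 ± 0.80, Pdgfrb 8.04 ± 0.67, Csf1r 10.54 ± 0.63), and Flt3 rose in both comparisons, so 4 of the 5 rose in GSK and none fell (median 6.17; with equal totals all 5 rose), per the authors' deposited tables.

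Cd24a had the highest level of the 9 in both tumour groups per kilobase of annotated transcript, from the authors' deposited tables. It had 12013 in SCLC against 3403 in Normal, a rise of 1.82 ± 0.52 (95% interval 0.8 to 2.84, adjusted p = 0.00126), per the authors' deposited table. That rise did not pass as a change above 1 on the log2 scale (adjusted p = 0.33), nor with a t distribution of 4 degrees of freedom (adjusted p = 0.0696), from the authors' deposited table. It had 15448 in GSK against 12988 in SCLC (0.25 ± 0.51, 95% interval -0.76 to 1.26, adjusted p = 0.75) per the authors' deposited table.

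Cd44, often read opposite to CD24, had 140 in SCLC against 1452 in Normal, a change of -3.38 ± 0.78 (95% interval -4.9 to -1.86, adjusted p = 4.88e-05), per the authors' deposited table. In GSK it had 6746 against 150 in SCLC, a rise of 5.49 ± 0.81 (95% interval 3.9 to 7.09, adjusted p = 2.57e-10), per the authors' deposited table. Added over both comparisons, which were scaled separately and share the SCLC libraries, the log2 fold changes put Cd44 2.11 above Normal in GSK, with no test, from the authors' deposited tables. CD44 exons are spliced by ESRP1 and ESRP2 in epithelia, and the authors' deposited tables give gene totals only, so variant and standard forms of Cd44 were not analysed here. Esrp2 fell in SCLC to 408, against 8733 in Normal (adjusted p = 2.02e-06), and fell again to 22.1 in GSK, against 435 in SCLC (adjusted p = 4.82e-05), per the authors' deposited tables. Esrp1 had 387 in SCLC against 4162 in Normal with neither a p nor an adjusted p, although its mean of 2274 was not low, per the authors' deposited table. With no value for a single library, it cannot be seen whether 1 library set these levels. Esrp1 fell in GSK (-3.53 ± 0.96, adjusted p = 0.0012), per the authors' deposited table. Cd44 and Esrp2 thus fell together in SCLC, and in GSK Cd44 rose while Esrp1 and Esrp2 fell. Of CD44 ligands and partners, Spp1, encoding osteopontin, had 35.7 in SCLC against 3296 in Normal and 16223 in GSK against 38.1 in SCLC (8.74 ± 1.59, adjusted p = 4.51e-07), per the authors' deposited tables. Msn, encoding moesin, which links CD44 to actin, fell in SCLC (-4.21 ± 0.32) and rose in GSK (2.12 ± 0.43), and its relatives had 0.01 (Ezr) and -0.03 (Rdx, which was 0.21 and 0.47 under the other scalings) in GSK, per the authors' deposited tables. Has2, a hyaluronan synthase, rose in GSK (3.81 ± 1.44, 95% interval 1.0 to 6.63, adjusted p = 0.0243), or 11.9-fold against the floor of 1, per the authors' deposited table. It did not pass as a change above 1 on the log2 scale (adjusted p = 0.273), from the authors' deposited table. Over this list 1 of 10 tested genes rose and 5 fell in SCLC (median -1.67), and 3 of 11 rose and 3 fell in GSK (median 0.93), per the authors' deposited tables. These counts depended on the scaling: in GSK 5 rose and 3 fell under both other scalings, and in SCLC none rose and 6 fell with the median of abundant genes at 0, where Hyal2 lost its call (adjusted p = 0.0985), recomputed from the authors' deposited tables.

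Epha2 had 97.1 in SCLC against 12315 in Normal, a change of -6.99 ± 1.21 (95% interval -9.35 to -4.62, adjusted p = 3.78e-08), per the authors' deposited table. It had 713 in GSK against 104 in SCLC, a rise of 2.78 ± 0.92 (95% interval 0.98 to 4.59, adjusted p = 0.00898), per the authors' deposited table. This rise was not called with a t distribution of 4 degrees of freedom (adjusted p = 0.141) or as a change above 1 (adjusted p = 0.283), from the authors' deposited table. Unlike Cd44 and Axl, its level in GSK stayed under that of Normal, with added log2 fold changes of -4.2, untested, from the authors' deposited tables. Among the 12 tested EPH receptors, 7 rose and 5 fell in SCLC (median 3.2) and none was left uncalled, per the authors' deposited table. Those that rose include Epha5 (12.65 ± 1.26) and Epha8 (12.24 ± 1.79), 2650-fold and 1990-fold higher in SCLC against the floor of 1, per the authors' deposited table. Ephb2 also rose, at 2973 in SCLC against 78.8 in Normal, per the authors' deposited table. Those that fell with Epha2 were Epha1 (-6.18 ± 0.72), Epha7 (-5.55 ± 0.68), Ephb4 (-5.38 ± 0.44), Epha4 and Ephb3, per the authors' deposited table. In GSK against SCLC, 2 of 12 rose and 4 fell (median -0.94), per the authors' deposited table. With equal totals 3 rose and 3 fell (median -0.44), so the tilt towards lower levels depended on the scaling, recomputed from the authors' deposited table. Epha1 (2.18 ± 0.86, adjusted p = 0.0327) and Ephb4, the receptor of venous endothelium (4.24 ± 0.64, adjusted p = 5.35e-10), rose, and Epha5 fell to 42.3 in GSK, against 2858 in SCLC (adjusted p = 9.54e-22), as did Epha8, Ephb1 and Ephb3, the last with a call lost under both other scalings (adjusted p = 0.105 and 0.388), per the authors' deposited table. The main EPHA2 ligand gene, Efna1, fell in SCLC to 76.5, against 3398 in Normal (adjusted p = 6.84e-21), and had 215 in GSK against 81.8 in SCLC (adjusted p = 0.107, or 0.0213 with equal totals), per the authors' deposited tables. Over 8 ephrin genes 3 rose and 4 fell in SCLC (median -0.92), among them Efna2 (3.53 ± 0.41) and Efna4 (-3.77 ± 0.37), per the authors' deposited table. In GSK, Efna3 (-3.87 ± 0.98) and Efna4 (-2.64 ± 0.87) fell and none of the 8 rose (median -0.04, or 0.2 and 0.46 under the other scalings), per the authors' deposited table.

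Axl had the largest fold change of the 9 in GSK against SCLC, after a fall in SCLC against Normal. It had 6.72 in SCLC against 974 in Normal, a change of -7.18 ± 0.61 (95% interval -8.37 to -5.99, adjusted p = 1.28e-30), per the authors' deposited table. It had 3603 in GSK against 7.23 in SCLC, a rise of 8.96 ± 0.55 (95% interval 7.88 to 10.04, adjusted p = 1.57e-56), per the authors' deposited table. The added log2 fold changes put Axl 1.78 above Normal in GSK, untested, from the authors' deposited tables. AXL, TYRO3 and MERTK form the TAM family, bound by GAS6 and protein S, and all 4 of the other genes of this system fell in SCLC (median -3.02) per the authors' deposited table. In GSK, Mertk, a receptor that macrophages use to clear dying cells, rose with Axl to 1310, against 5.16 in SCLC (7.99 ± 0.57, adjusted p = 4.94e-42), and Pros1, encoding protein S, rose (3.5 ± 0.53), per the authors' deposited table. Tyro3, the member of neural tissue, fell in GSK (-1.48 ± 0.47, adjusted p = 0.00611), a call that ended with equal totals (adjusted p = 0.0881), and Gas6 had 1517 in GSK against 3014 in SCLC (adjusted p = 0.0545, or 0.0424 among genes averaging 10 or more), per the authors' deposited table. The list median in GSK was 1.25 per the authors' deposited table.

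**Figure D3:**
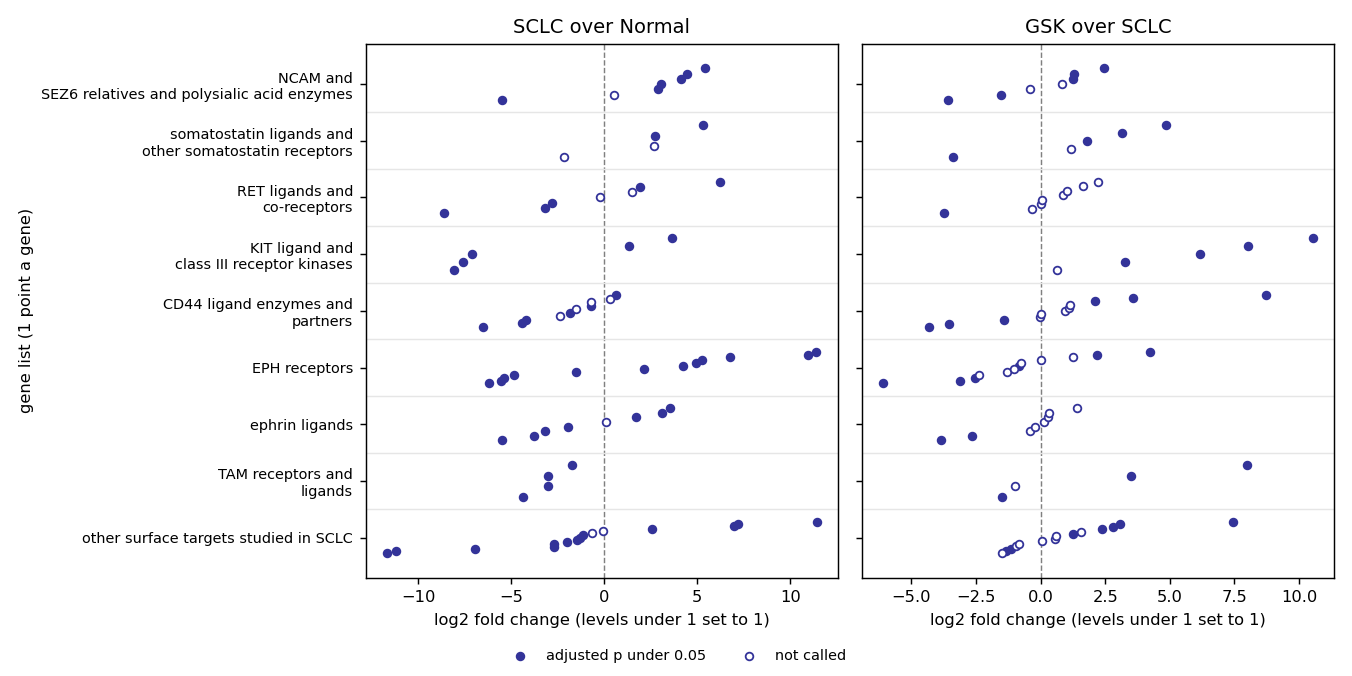
Log2 fold change of the related genes by list, 1 point a gene, in SCLC over Normal (left) and GSK over SCLC (right), with levels under 1 set to 1; filled points had an adjusted p under 0.05. All 4 TAM genes lie below 0 on the left, and on the right 4 of the 5 KIT ligand and class III receptor kinase genes are filled and above 0.

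Promoter sequence was read for Cd44, Epha2 and Axl, which fell in SCLC against Normal and rose in GSK against SCLC. Sstr2 was read as a gene of the opposite set in SCLC, and the aim was to show the letters upstream of genes that moved together. RefSeq promoters (build GRCm38.p6) matched 5 of the 9 genes, namely Sstr2, Kit, Cd44, Epha2 and Axl. The 250 bases before the annotated start are given 5′ to 3′ on the strand of the gene, in lower case, with capitals for GGAATG or its reverse complement CATTCC (the core that TEAD factors bind) and for TGACGTCA (the cAMP response element); TGACGTCA was searched after the sequences had been read. The stretches lie at chr7:25788734-25788983 (minus strand, Axl), chr4:141300971-141301220 (plus strand, Epha2), chr2:102901666-102901915 (minus strand, Cd44) and chr11:113619077-113619326 (plus strand, Sstr2).
Axl: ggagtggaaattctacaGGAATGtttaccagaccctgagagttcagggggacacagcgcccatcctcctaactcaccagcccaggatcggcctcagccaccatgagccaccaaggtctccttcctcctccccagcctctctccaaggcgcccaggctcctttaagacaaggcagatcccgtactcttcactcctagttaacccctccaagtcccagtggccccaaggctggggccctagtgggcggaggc
Epha2: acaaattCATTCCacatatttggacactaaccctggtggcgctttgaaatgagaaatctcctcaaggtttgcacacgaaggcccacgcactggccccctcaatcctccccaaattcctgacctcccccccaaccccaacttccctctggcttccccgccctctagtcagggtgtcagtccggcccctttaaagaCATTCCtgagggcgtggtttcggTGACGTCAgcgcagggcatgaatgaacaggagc
Cd44: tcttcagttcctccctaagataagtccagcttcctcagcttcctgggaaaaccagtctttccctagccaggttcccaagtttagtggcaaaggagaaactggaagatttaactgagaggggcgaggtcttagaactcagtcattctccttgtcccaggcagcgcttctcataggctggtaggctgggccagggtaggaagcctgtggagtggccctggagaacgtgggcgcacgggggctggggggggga
Sstr2: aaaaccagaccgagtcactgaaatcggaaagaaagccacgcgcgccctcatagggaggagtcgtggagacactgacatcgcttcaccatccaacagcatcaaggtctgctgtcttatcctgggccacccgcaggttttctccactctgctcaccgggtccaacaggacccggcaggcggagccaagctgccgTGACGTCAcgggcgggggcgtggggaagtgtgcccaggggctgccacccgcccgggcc
GGAATG, on either strand, began 233 bases before the start in Axl, and 243 and 56 bases before it in Epha2, and was not found in these windows of Cd44, Kit or Sstr2. It occurs in 12.6% of the 32851 promoters of the same length in the table. TGACGTCA, which reads the same on both strands, began 58 bases before the start of Sstr2 and 33 before that of Epha2, 2 genes that moved in opposite directions in SCLC, and occurs in 1.55% of all promoters. The GC content of the windows was 60.0% in Axl, 55.6% in Epha2, 56.4% in Cd44, 63.6% in Sstr2 and 70.8% in Kit, beside a median of 52.4% over all promoters.

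Other surface targets studied in SCLC also went both ways. Of 15 tested, 4 rose and 9 fell (7 with equal totals) in SCLC against Normal (median -1.28) per the authors' deposited table. Dll3, a Notch ligand and the target of a bispecific T cell engager, rose in SCLC (12.7 ± 1.27, adjusted p = 1.92e-22), or 2740-fold against the floor of 1, per the authors' deposited table. Cxcr4, a chemokine receptor, rose to 1442, against 9.68 in Normal, and St8sia1, which makes the ganglioside GD3, rose (7.0 ± 1.44), per the authors' deposited table. Cd276, encoding B7-H3, rose by 2.59 ± 0.28 in SCLC, per the authors' deposited table. Met, the hepatocyte growth factor receptor gene, fell with Epha2 and Axl (-6.95 ± 0.69), per the authors' deposited table. In GSK, 5 of 14 rose and 2 fell (median 0.58) per the authors' deposited table. With equal totals 7 rose and 1 fell (median 1.09), and 5 rose and 1 fell with the median of abundant genes at 0 (median 0.83), recomputed from the authors' deposited table. Dll3 fell to 1322 in GSK, against 2933 in SCLC (-1.15 ± 0.40, adjusted p = 0.0137, a call lost under both other scalings, with adjusted p = 0.0629 and 0.202), and Cd276 fell to 1740 in GSK, against 4339 in SCLC (adjusted p = 0.000293), per the authors' deposited table. Cd200 (3.09 ± 0.48), Prom1 (2.81 ± 0.54), Igf1r (2.37 ± 0.41) and Cxcr4 (1.25 ± 0.38) rose, per the authors' deposited table.

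Many calls of the related genes in GSK against SCLC ended with the t distribution of 4 degrees of freedom, as those of Kit and Epha2 did. Among the neuronal and receptor genes these were Sez6l (adjusted p = 0.104), Ncam2 (0.201), St8sia4 (0.122), Nrcam (0.181), Chl1 (0.205), Sstr5 (0.0646), Sstr4 (0.0702), Sstr1 (0.171) and Cort (0.116), recomputed from the authors' deposited table. Flt3 (adjusted p = 0.074), Spp1 (0.0579), Msn (0.0663), Has2 (0.173), Esrp1 (0.104) and Esrp2 (0.0761) lost their calls as well, recomputed from the authors' deposited table. So did Epha1 (adjusted p = 0.187), Epha8 (0.096), Ephb1 (0.0824), Ephb3 (0.157), Efna3 (0.093), Efna4 (0.141) and Tyro3 (0.131), recomputed from the authors' deposited table. Of the other targets named, Dll3 (adjusted p = 0.153), Cd276 (0.0889), Prom1 (0.062), Igf1r (0.0545) and Cxcr4 (0.122) lost theirs, as did the mast cell markers Cma1 (0.0529), Cpa3 (0.121), Fcer1a (0.157) and Ms4a2 (0.146), recomputed from the authors' deposited table. Neuroendocrine markers whose calls in GSK ended were Syp (adjusted p = 0.0891), Uchl1 (0.0782), Scg3 (0.209) and Calca (0.152), recomputed from the authors' deposited table. The lung epithelial markers Sftpb (adjusted p = 0.14), Hopx (0.0691) and Foxj1 (0.0615) and the endothelial marker Vwf (0.0683) lost theirs too, recomputed from the authors' deposited table. In SCLC against Normal the same held for Sez6l (adjusted p = 0.117), Sstr1 (0.17), Gfra2 (0.131), Flt3 (0.138) and Kitl (0.0793), recomputed from the authors' deposited table.

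Markers of other cell types rose in GSK together with Cd44, Axl, Epha2 and Kit, whereas in SCLC against Normal Kit rose while fibroblast and macrophage markers fell. In bulk RNA fewer cells of a type and less RNA per cell cannot be told apart. In GSK against SCLC all 7 macrophage markers rose, with a summed level of 27300 in GSK against 123 in SCLC, per the authors' deposited table. All 7 endothelial markers rose (21400 in GSK against 532 in SCLC), as did all 7 fibroblast markers (15000 in GSK against 26.3 in SCLC), per the authors' deposited table. Ptprc, the pan-leukocyte gene CD45, had 12562 in GSK and lay under 1 in SCLC (17.13 ± 1.32, adjusted p = 8.07e-36), or 12600-fold against the floor of 1, per the authors' deposited table. Cdh5, encoding VE-cadherin, rose in GSK (12.48 ± 0.81), or 5310-fold against the floor, per the authors' deposited table. In SCLC 4 of the 7 macrophage, 3 of the 7 endothelial and 2 of the 7 fibroblast markers lay under 1, while the endothelial marker Vwf had 4981 in GSK against 475 in SCLC, from the authors' deposited table. Lung epithelial markers rose too, 7 of 8 tested, with Scgb1a1 at 5428 in GSK against 2.37 in SCLC, and the list summed to 9280 in GSK against 590 in SCLC, per the authors' deposited table. Of the 8 neuroendocrine markers 5 fell (4 under either other scaling) and Calca rose in GSK, with Insm1 at 17353 in GSK against 66876 in SCLC, per the authors' deposited table. Csf1r and Pdgfra stand both here and in the KIT list. Libraries labelled as treated SCLC organoids thus carried RNA of leukocyte, endothelial and fibroblast genes at higher summed levels than the SCLC libraries, and the part of this in the changes of Axl, Cd44, Epha2, Kit, Mertk, Csf1r and Spp1 was not tested.

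**Figure D4:**
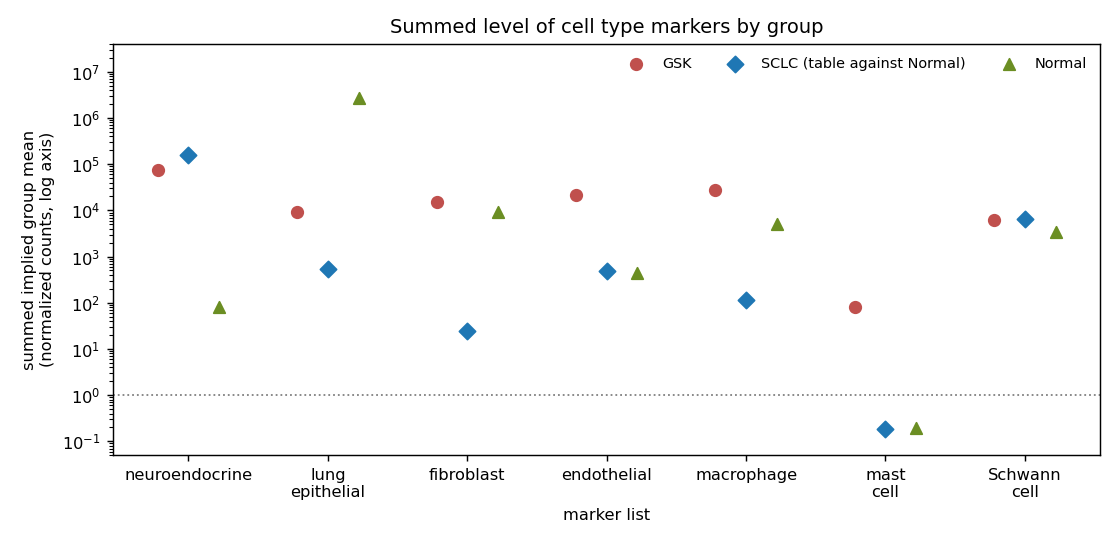
Summed implied group mean of 7 marker lists in normalized counts (log axis) in GSK, SCLC and Normal organoids, the SCLC sums taken from the comparison with Normal. The macrophage list reaches 27300 in GSK, 115 in SCLC and 5040 in Normal, and the neuroendocrine list 73300 in GSK, 156000 in SCLC and 79.4 in Normal.

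The fall of Cd44, Epha2 and Axl in SCLC stood beside lower fibroblast, macrophage and lung epithelial markers. The 7 tested lung epithelial markers, all 7 fibroblast markers (24.4 in SCLC against 9130 in Normal) and all 7 macrophage markers (115 in SCLC against 5040 in Normal) fell, per the authors' deposited table. Endothelial markers summed to 496 in SCLC against 449 in Normal, with 4 of 7 lower and none higher, per the authors' deposited table. Schwann cells also express Ncam1, and their markers summed to 6660 in SCLC against 3410 in Normal, nearly all of it Mbp, while Sox10 lay under 1 in both groups, per the authors' deposited table. Their part in the changes of the 9 genes was not tested.

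Set per kilobase of the longest GENCODE M21 transcript, the 9 genes ran in SCLC from Cd24a (6610) through Sez6 (974), Ncam1 (622), Ret (593), Sstr2 (486) and Kit (149) to Cd44 (24.9), Epha2 (24.8) and Axl (1.58), from the authors' deposited table that compares SCLC with Normal. Normal had Epha2 first (3150), then Cd24a (1870), Ret (290), Cd44 (259) and Axl (228), and the other 4 lay at 4.58 or less, from the authors' deposited table. GSK was led by Cd24a (8510), Cd44 (1200) and Axl (845), then Sez6 (648), Ret (647), Kit (536), Ncam1 (534), Sstr2 (408) and Epha2 (182), from the authors' deposited table. The orders depended on the transcript length used: with the median length Axl (5230) stood ahead of Cd44 (3410) in GSK, Epha2 (951) was 6th and Sstr2 (569) last, and 1 of the 9 genes kept its place, from the authors' deposited table. Cd24a stayed first in GSK and SCLC and Epha2 first in Normal with either length, from the authors' deposited tables. Since levels carry no error of their own, neighbours in these orders, such as Cd44 and Epha2 in SCLC or Sez6 and Ret in GSK, were not shown to differ.

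The standard errors of most of the 9 were large beside those of genes with a like mean over both groups. Neither the fold change nor the level of the lower group was matched. The comparison therefore does not tell whether these genes varied more between libraries. In SCLC against Normal, Epha2 had a larger SE than 99.2% of 2776 genes with a mean within 2-fold of its own (1.21 beside a median of 0.26), per the authors' deposited table. Cd44 did so for 99.1% of 4371 such genes in GSK against SCLC (0.81 beside 0.29), whereas Sez6 had a smaller SE there than most (0.25 beside 0.29, larger than 25.7%), per the authors' deposited table. The spread of single libraries was not analysed here.

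The genes nearest to each of the 9 were sought over the pair of log2 fold changes, among 11769 others averaging 100 or more in both of the authors' deposited tables. With only 2 coordinates per gene, which share the SCLC libraries, likeness here is a description. Most distances were smaller than the SE of the gene's own fold change in SCLC against Normal, so the order of neighbours is not resolved. For Sez6 the deposited fold change was used (SE 1.21), although its level in Normal lay under the floor of 1. Nearest to Sez6 were Unc79, Atcay and St8sia5 (distances of 0.19 to 0.34), and nearest to Ncam1 were Cend1 and Cacna1h (0.12 and 0.18), from the authors' deposited tables. Sstr2 lay beside Carmil2, Prr7 and Faxc (0.087 to 0.14), and Kit beside Arhgef15 and Sybu (0.14 and 0.18), with Ptn farther off (0.63), from the authors' deposited tables. Ret and Cd24a sat among many genes, with Alkbh8 (0.014) and Alg13 (0.027) closest, from the authors' deposited tables. Epha2 was next to Cavin2, Cxcl1 and Slco3a1 (0.12 to 0.26), from the authors' deposited tables. Cd44 and Axl had few close neighbours: Nfkbiz, Sema4a and Zfp36 for Cd44 (0.36 to 0.66), and Gda, Mmp19 and Spp1 for Axl (0.56 to 0.69), from the authors' deposited tables.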

How the data were processed

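RNA-seq values of 9 mouse organoid libraries were used through a pair of comparison tables, 3 libraries against 3. Per the submitters' processing notes, reads were aligned with STAR 2.7.9a to GRCm39; the sources used here do not give the counting, strand setting, annotation or test. Per the file headers, the deposited columns are those of a DESeq2 results table: the signal column is the authors' mean of normalized counts, the log2 columns are the authors' fold change and its standard error, the score column is the authors' statistic, and the p-value columns are the authors' p and adjusted p. The statistic equalled fold change over standard error to within 8.9e-08. No column held a single library, so depth per library, replicate spread and pairing were not analysed here, and the edgeR test planned for counts was not run.

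The mean of each group followed from the deposited mean and fold change, taking both groups as equal in size. Over 13634 genes averaging 50 or more, the control arm of the GSK table had a log2 ratio to SCLC of the other table with median 0.109 and SD 0.0084, against an SD of 2.02 for the GSK arm, so the control was taken as SCLC. The threshold was the authors' adjusted p under 0.05, over 24719 and 28376 genes. Folds against a group mean under 1 are bounds set by the floor of 1, which cover counting error only and leave out the spread between libraries. Calculations used Python 3.11.15, numpy 2.4.6, pandas 2.3.3 and scipy 1.17.1, tested on simulated data; lengths came from GENCODE M21 (GRCm38) by gene ID, with no coordinates carried across builds. The genes and the 16 lists beside them were chosen with earlier results of these data known. From each list up to 4 called genes with the largest change were named per comparison; further ones named in short lists or as neighbours of a member's function were chosen after their values were seen. Some genes and a motif that these rules take in are not reported here.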

Additional observations from a re-analysis of the deposited data

How the results depend on the processing

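Setting the median of genes averaging 100 or more to 0 moved every log2 fold change by -0.181 in SCLC against Normal and 0.246 in GSK against SCLC, and equal implied totals moved them by 0.0899 and 0.506, from the authors' deposited tables. In SCLC against Normal 7 to 8 of the 9 genes were called under the 7 alternatives; the t distribution with 4 degrees of freedom called 7572 genes in all (3792 higher, 3780 lower) and a test above 1 on the log2 scale 6340 (2949 higher, 3391 lower). In GSK against SCLC the t distribution called 2030 (1621 higher, 409 lower), the test above 1 called 3724 (3161 higher, 563 lower), and equal totals left 1970 lower. Under the t distribution and the test above 1, 2 of the 9 genes were called in GSK, both higher (Cd44 and Axl), and Kit (adjusted p = 0.11 and 0.558) and Epha2 (adjusted p = 0.141 and 0.283) lost their calls. Genes called lower among the 9 numbered 0 under both scalings, the t distribution, the test above 1 and an adjusted p under 0.01, which was the loss of Sez6. With equal totals Ncam1 had 0.18 and Sstr2 0.16 in GSK, a turned sign with no call (adjusted p = 0.669 and 0.798), as had Sez6l2 (0.1) and Rdx (0.47, and 0.21 with the median at 0). Of the called genes in the lists and the named genes below the threshold, 45 of 91 in GSK and 23 of 102 in SCLC lost a call under the t distribution, and 31 and 25 under the test above 1. Both totals include genes with no call as deposited, such as Ret, which could not lose one, so the shares among called genes are larger. A floor of 10 normalized counts put Sez6 in SCLC at least 441-fold above Normal, and the median in place of the longest transcript length left 1, 3 and 4 of the 9 genes in place in the orders of GSK, SCLC and Normal. No paired analysis was possible because the columns carry no single library; leaving out replicates, the replicate block and other tools were not run for the same reason.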
